A study of Mus musculus with 20 samples.

Results

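Glucose is broken down to pyruvate by glycolysis, and pyruvate is either turned into lactate, which leaves the cell, or passed to the mitochondria. When oxygen is short, the transcription factor HIF-1 raises many of the same genes, and prolyl hydroxylases keep its alpha subunit low when oxygen is present. Activated T cells are known to draw heavily on glycolysis while they divide, and memory and regulatory T cells less so. The genes described here are 33 mouse genes of these routes, chosen by symbol: 4 glucose and lactate transporters, 9 enzymes of upper glycolysis, 9 of lower glycolysis, 5 genes of control steps and side branches, and 6 genes of oxygen sensing and HIF-1 response. Of the 17101 genes measured, 32 of the 33 were found, *Pgk1* was not analysed here, and 31 entered the tests, since *Vegfa*, a growth factor for blood vessels, had no normalized count above 12.4 in any library.

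RNA-Seq was performed on sorted splenic donor T cells on day +10 after transplantation, in 5 groups of 4 libraries: CD4+ and CD8+ cells of KO and of WT donors, and cells of KO donors that carry both coreceptors (double-positive, DP). Donors were 6 to 12 weeks old and recipients 8 to 12 weeks old, and donor marrow and T cells were given to lethally irradiated, haploidentical F1 mice. All 5 groups thus come from allogeneic transplants. KO donors had both alleles of *Dnmt3a*, a DNA methyltransferase, flanked by loxP sites and cut by Cre under the *Cd4* promoter, which acts in developing T cells of both lineages, and WT donors were littermates. DP cells of WT donors are not analysed here. KO libraries carry the numbers 1 to 4 and WT libraries 2, 3, 5 and 6, taken here as animals within each genotype. Values of libraries are listed in the order of these numbers. The values are normalized counts, that is, reads on the exons of a gene divided by a size factor of the library, and rest on 37547651 to 46966318 reads per library.

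*Dnmt3a* itself had normalized counts of 650 to 2007 in the 12 KO libraries and 3542 to 5171 in the 8 WT libraries. *Cd4* and *Cd8a* followed the labels, but the KO CD4+ library of animal 1 held a *Cd8a* normalized count of 3771, against 78.3 to 227 in the other KO CD4+ libraries, and *Cd4* lay at 302 to 458 in KO CD8+ and 9.88 to 79.6 in WT CD8+ libraries. The DP library of KO animal 3 had reads on 11783 genes, against 13203 to 14677 in the others. Of 6 B cell genes, 2 entered the tests, and 2 were higher in KO CD4+ and 1 in KO CD8+ cells (8.59% and 12.6% of all genes). *Cd79b* was higher in both subsets, while *Ms4a1* reached at most 4.39 in any library. The summed normalized count of the list was 646 to 2284 in KO and 55.7 to 266 in WT libraries. Most of the highest sum was 1 gene, at 1073 of 1121 in KO CD4+, 2245 of 2284 in KO CD8+ and 2185 of 2250 in DP cells. Of 9 genes of tissue handling and stress, 8 were lower in KO cells in each subset, with sums of 6109 to 20678 in KO and 19254 to 65305 in WT libraries. These move with genotype, as do the KO and WT differences below, and their part in them was not tested. In sorted bulk cells, a smaller share of cells with an RNA and less of that RNA per cell cannot be told apart.

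**Figure D1:**
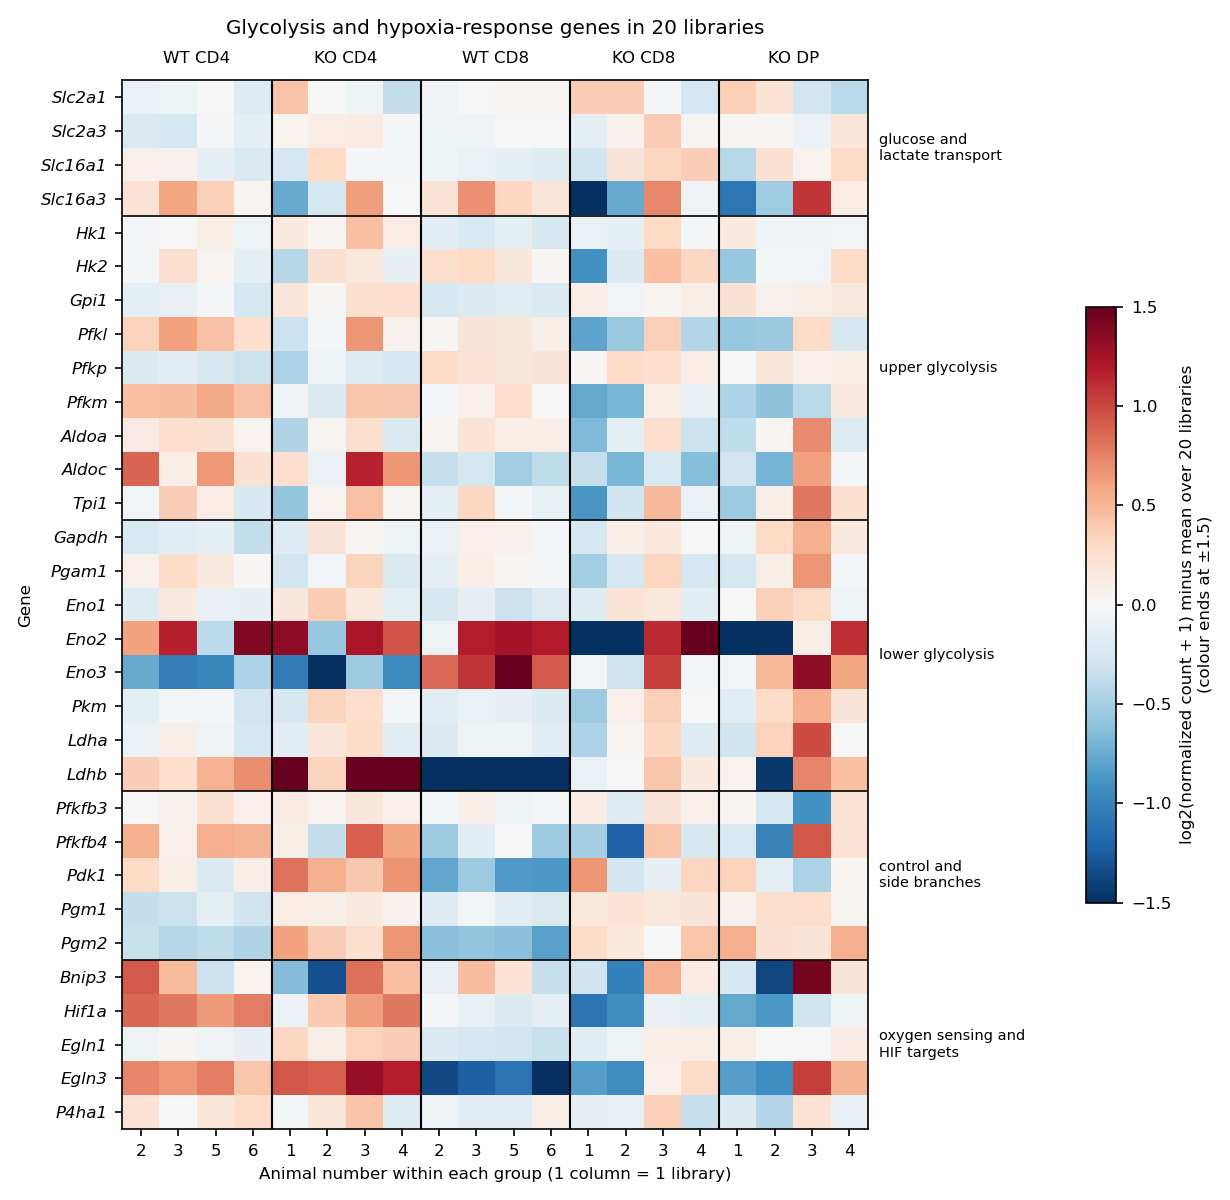
Each of the 31 tested genes is a line and each library a column, grouped by subset and genotype. Colour gives log2(normalized count + 1) minus the gene's mean over the 20 libraries, with the colour ending at 1.5 in either direction. *Ldhb* and *Egln3* were low in the WT CD8+ columns, and the *Pgm2* columns of all 3 KO groups lay above those of both WT groups.

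Windows are the 250 bases before a gene's known start site, read 5' to 3' on the gene's own strand (RefSeq, GRCm38.p6). Of the genes that differed between KO and WT cells and have such a window, *Gpi1* and *Eno3* are not printed, and 4 are. They encode *Ldhb*, the heart-type subunit of lactate dehydrogenase (chr6:142507958-142508207, minus strand); *Pdk1*, the kinase that holds back pyruvate dehydrogenase (chr2:71872974-71873223, plus strand); and the oxygen-sensing prolyl hydroxylases *Egln3* (chr12:54203875-54204124, minus strand) and *Egln1* (chr8:124949255-124949504, minus strand). Capitals mark ACGTG or GCGTG on either strand, the core to which HIF-1 is known to bind. The *Ldhb*, *Pdk1* and *Egln3* windows each held 1 such core and the *Egln1* window held 2, and CpG dinucleotides, the sites of DNA methylation, numbered 14, 19, 10 and 51.

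Ldhb: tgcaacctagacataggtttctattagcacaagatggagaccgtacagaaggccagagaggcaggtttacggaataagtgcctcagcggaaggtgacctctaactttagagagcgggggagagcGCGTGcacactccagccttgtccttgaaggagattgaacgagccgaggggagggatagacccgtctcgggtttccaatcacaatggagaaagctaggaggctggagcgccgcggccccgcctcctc
Pdk1: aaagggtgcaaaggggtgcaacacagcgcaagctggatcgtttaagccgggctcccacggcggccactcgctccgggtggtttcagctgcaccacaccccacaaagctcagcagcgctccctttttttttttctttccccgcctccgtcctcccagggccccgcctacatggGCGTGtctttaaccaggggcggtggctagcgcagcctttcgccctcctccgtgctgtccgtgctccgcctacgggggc
Egln3: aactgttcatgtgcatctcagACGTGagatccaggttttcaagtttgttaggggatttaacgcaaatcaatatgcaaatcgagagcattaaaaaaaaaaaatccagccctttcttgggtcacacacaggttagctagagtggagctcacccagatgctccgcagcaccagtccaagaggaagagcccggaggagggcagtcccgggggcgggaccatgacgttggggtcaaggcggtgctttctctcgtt
Egln1: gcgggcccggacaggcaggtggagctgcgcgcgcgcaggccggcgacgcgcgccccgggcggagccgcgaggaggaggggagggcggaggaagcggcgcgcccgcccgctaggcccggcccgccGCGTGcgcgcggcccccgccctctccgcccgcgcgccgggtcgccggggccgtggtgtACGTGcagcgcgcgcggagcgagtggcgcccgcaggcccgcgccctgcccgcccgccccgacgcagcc

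Of the 29 members with values and such a window, 22 (75.9%) held at least 1 core, against 38.6% of 32851 mouse windows and 56.3% of the 9377 windows of genes whose mean over the 20 libraries was 10 or more. The members' windows held a median of 14 CpG, against 6 in all windows and 16 in those of expressed genes. CACGTG, which holds the core on both strands and is known as the E-box of MYC, was in 17.2%, 6.02% and 8.26% of the same 3 sets. The window of *Gpi1*, which differed between KO and WT cells, had 0 cores and 14 CpG. That of *Eno3*, which was lower in KO CD8+ cells, had 1 core and 3 CpG. The window of *Ldha*, which did not pass the test in either subset, had 5 cores, where each of its 2 CACGTG was counted on both strands. *Slc2a3* had no window, and *Pgm1* and *Pgm2* have exchanged names between their loci in current annotation, so that neither is given a position or a window here.

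Per kilobase of exon, averaged over the 20 libraries, *Gapdh* (29148), *Ldha* (28547), *Pkm* (20751) and *Aldoa* (16252) had the highest normalized counts of the members, and *Eno2* (5.13) and *Vegfa* (0.85) the lowest. *Hk1* held 86.5% to 90.6% of the hexokinase level per kilobase (group means, *Hk1* and *Hk2* together), *Aldoa* over 99% of that of *Aldoa* and *Aldoc*, and *Slc2a3* 63.2% to 65.3% of that of the glucose transporters *Slc2a1* and *Slc2a3*. *Eno1* shares nearly all of its sequence with *Eno1b*, which took 87.1% to 89.7% of the reads of the pair, so *Eno1* values are uncertain. Per kilobase, *Eno1* was at 1693 and *Eno1b* at 15502, so the place of *Eno1* in the order of levels is uncertain too. *Gapdh* has 76 near-identical copies in the genome, 3 of them in the table, and is uncertain for the same reason.

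In CD4+ cells, 5 of 31 members were higher in KO cells and 0 were lower at an adjusted p under 0.05 (limma, Benjamini-Hochberg over all 12391 genes tested). This is 16.1% of the members, against 18.4% of all genes, of which 8.59% were higher and 9.77% lower. The members' median log2 difference was 0.04, against -0.05 over all genes tested. The 5 genes were *Pgm2*, *Pdk1*, *Pgm1*, *Egln1* and *Gpi1*, and none is a transporter or an enzyme of lower glycolysis. That rests on the threshold, since the transporter *Slc2a3* (adjusted p = 0.0535, limma) and the lower glycolysis enzyme *Ldhb* (0.0580) lay just above it. Groups did not overlap for 7 members (22.6%), against 25.6% of all genes. *Pfkm*, 1 of the 7, was lower in KO cells (-0.35) and did not pass the test. Without the WT library of animal 6, *Pgm2* alone passed, and without the KO CD4+ library of animal 1, 4 of the 5 did, all but *Gpi1*.

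In CD8+ cells, 7 members were higher and 1 was lower in KO cells, 25.8% of 31, against 25.2% of the 12383 genes tested, of which 12.6% were higher and 12.5% lower. The members' median log2 difference was 0.02, against -0.04 over all genes tested. The 5 genes that passed in CD4+ cells passed here in the same direction, and *Ldhb* and *Egln3* were higher and *Eno3* lower as well. Groups did not overlap for 7 members (22.6%), against 30.6% of all genes. Without the KO library of animal 3, 13 members passed, and without the WT library of animal 2, 3 or 6, 4 passed. Libraries of the 2 subsets carry the same numbers, taken as the same animals, so the 2 comparisons were not treated as independent.

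**Figure D2:**
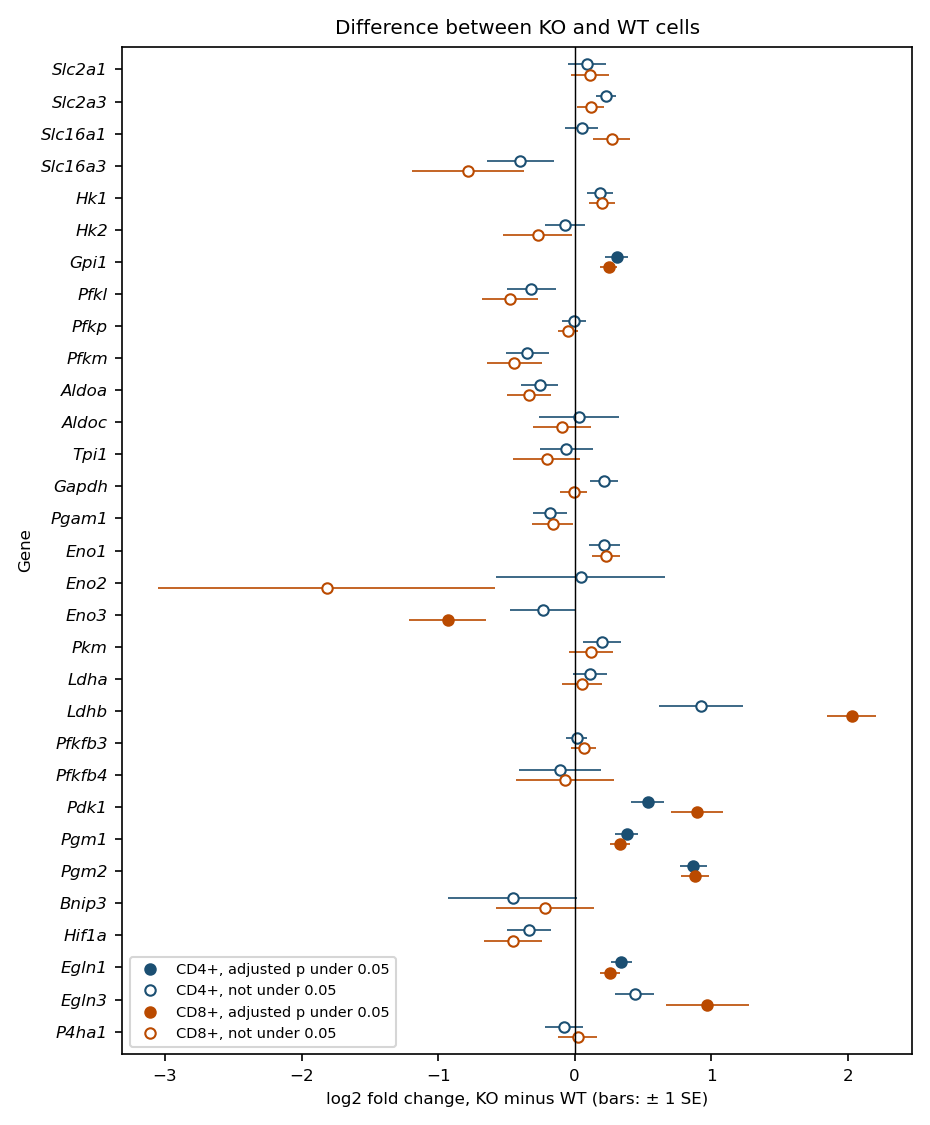
The log2 fold change of KO over WT cells with its SE for each of the 31 tested genes, in CD4+ (blue) and CD8+ cells (orange), where filled points passed the test. *Ldhb* in CD8+ cells, at 2.03, is the value farthest to the right, and the open points of *Gapdh*, *Pkm* and *Ldha* lie between -0.01 and 0.22.

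*Ldhb*, which favours the turning of lactate back into pyruvate, had normalized counts of 89.0, 109, 111 and 117 in WT CD8+ cells and 375, 405, 536 and 445 in KO CD8+ cells. Every KO CD8+ library lay above every WT CD8+ library, and the mean was 440 ± 70.2 against 107 ± 12.2 (SD, n = 4 each). The fold change was 4.08, a log2 difference of 2.03 (SE 0.18, adjusted p = 0.000463, limma). In CD4+ cells the WT libraries held 518, 480, 578 and 652 and the KO libraries 1152, 506, 1228 and 1714. The KO library of animal 2 lay within the WT range and the other 3 above it, with a log2 difference of 0.93 (SE 0.31) that did not pass the test (adjusted p = 0.0580). The effect was 1.10 larger in CD8+ than in CD4+ cells (SE 0.38), which did not pass the interaction test (adjusted p = 0.569, limma). No member passed that test (background 0.0161% of 12446 genes), and *Ldhb* was the 1 member with an unadjusted p under 0.05, against 6.37% of all genes. With the animal as a block, 0 members passed (1.39% of all genes), and 6 had an unadjusted p under 0.05, against 15.2% of all genes. These were *Ldhb* (SE 0.29, adjusted p = 0.0879, limma), *Egln3* (0.53), *Pdk1* (0.36), *Eno3* (-0.70), *Slc16a3* (-0.38) and *Gapdh* (-0.22). The *Ldhb* share of the lactate dehydrogenase level per kilobase was 0.320% ± 0.031 in WT CD8+ and 1.26% ± 0.156 in KO CD8+ cells, 1.62% ± 0.366 in WT CD4+, 3.10% ± 1.59 in KO CD4+ and 1.03% ± 0.537 in KO DP cells (SD, n = 4 each). *Ldha*, the subunit that favours lactate and the most abundant lactate dehydrogenase, was at 46112 to 51525 in WT CD8+ and 39105 to 66917 in KO CD8+ cells, and its log2 difference of 0.05 (SE 0.15) did not pass the test.

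*Pgm2* and *Pgm1*, phosphoglucomutases that link glucose 6-phosphate to glycogen and to the pentose phosphates, were higher in KO cells of both subsets. *Pgm2* was 1764, 1649, 1711 and 1620 in WT CD4+ and 3389, 2876, 2629 and 3511 in KO CD4+ libraries, and 1439, 1471, 1442 and 1265 in WT CD8+ and 2699, 2485, 2232 and 2969 in KO CD8+ libraries. No KO value reached down to the WT range in either subset, and the log2 differences were 0.87 (SE 0.10, adjusted p = 0.00165) and 0.88 (SE 0.10, adjusted p = 0.00107). *Pgm1* was 1261, 1291, 1479 and 1320 in WT CD4+ and 1755, 1725, 1799 and 1688 in KO CD4+ libraries, and 1418, 1576, 1435 and 1400 in WT CD8+ and 1810, 1872, 1807 and 1852 in KO CD8+ libraries. These groups did not overlap either, and the log2 differences were 0.38 (SE 0.08, adjusted p = 0.0155) and 0.33 (SE 0.07, adjusted p = 0.0112). In CD4+ cells *Pgm1* was lost without the WT library of animal 3 (adjusted p = 0.0508) or 6 (0.0535).

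*Pdk1*, which keeps pyruvate from mitochondrial oxidation, was 2517, 2200, 1776 and 2192 in WT CD4+ and 3602, 2976, 2715 and 3276 in KO CD4+ libraries. The KO values lay above the WT range, with a log2 difference of 0.54 (SE 0.12, adjusted p = 0.0170), and animal 1 was the highest in both KO CD4+ and KO CD8+ cells. In CD8+ cells it was 1193, 1411, 1143 and 1131 in WT and 3245, 1679, 1889 and 2558 in KO libraries, a log2 difference of 0.90 (SE 0.19, adjusted p = 0.0102) with no overlap. *Gpi1*, which turns glucose 6-phosphate into fructose 6-phosphate, was 26081, 26456, 27914 and 23812 in WT CD4+ and 32444, 28884, 33642 and 34155 in KO CD4+ libraries, and 24160, 24733, 25540 and 24602 in WT CD8+ and 30511, 27755, 29119 and 30403 in KO CD8+ libraries. The log2 differences of 0.31 (SE 0.08, adjusted p = 0.0333) and 0.25 (SE 0.06, adjusted p = 0.0177) were lost under quantile normalization, where they were 0.16 (adjusted p = 0.162) and 0.10 (adjusted p = 0.346). The CD4+ difference was also lost without any 1 library other than that of KO animal 2 (adjusted p of 0.0537 to 0.104), and the CD8+ difference without WT animal 2, 3 or 6 (0.0573 to 0.0623). That of *Pdk1* in CD4+ cells was lost without WT animal 6 (adjusted p = 0.0541).

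Both HIF prolyl hydroxylases among the members, enzymes that mark HIF alpha for breakdown, passed the test in CD8+ cells, and *Egln1* in CD4+ cells as well. *Egln1* was 4673, 4996, 4731 and 4520 in WT CD4+ and 6115, 5288, 6250 and 6374 in KO CD4+ libraries, with a log2 difference of 0.34 (SE 0.08, adjusted p = 0.0173). In CD8+ cells it was 4234, 4133, 4034 and 3916 in WT and 4416, 4654, 5227 and 5267 in KO libraries, a difference of 0.26 (SE 0.07, adjusted p = 0.0331). *Egln1* was lost in CD4+ cells without WT animal 5 or 6 (adjusted p of 0.0508 and 0.0620), and in CD8+ cells without KO animal 4 or any 1 WT library (0.0661 to 0.0993). *Egln3* was 113, 124, 135 and 96.4 in WT CD8+ and 164, 152, 308 and 356 in KO CD8+ libraries, so that animals 3 and 4 were farther from the WT libraries than animals 1 and 2, and the log2 difference was 0.97 (SE 0.30, adjusted p = 0.0425). It was lost without KO animal 3 or 4 or any 1 WT library (adjusted p of 0.0744 to 0.113). In CD4+ cells *Egln3* was 484, 460, 497 and 390 in WT and 558, 546, 722 and 663 in KO libraries, without overlap, and the log2 difference of 0.44 (SE 0.14) did not pass the test (adjusted p = 0.0557). *Hif1a*, the alpha subunit itself, was 28785 to 33644 in WT CD4+ and 17414 to 31994 in KO CD4+ libraries and 16099 to 18138 in WT CD8+ and 8684 to 17173 in KO CD8+ libraries. Its differences of -0.33 (SE 0.16) and -0.45 (SE 0.21) did not pass the test (adjusted p = 0.166 and 0.143).

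*Eno3*, the muscle-type enolase, was the 1 member that passed the test as lower in KO cells, and did so in CD8+ cells only. It was 892, 1048, 1436 and 940 in WT CD8+ and 481, 399, 1024 and 484 in KO CD8+ libraries, a log2 difference of -0.93 (SE 0.28, adjusted p = 0.0380). The KO library of animal 3 lay within the WT range, and without it the difference was -1.22 (adjusted p = 0.00181). Without any 1 of the other 7 libraries the adjusted p was between 0.0629 and 0.107.

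**Figure D3:**
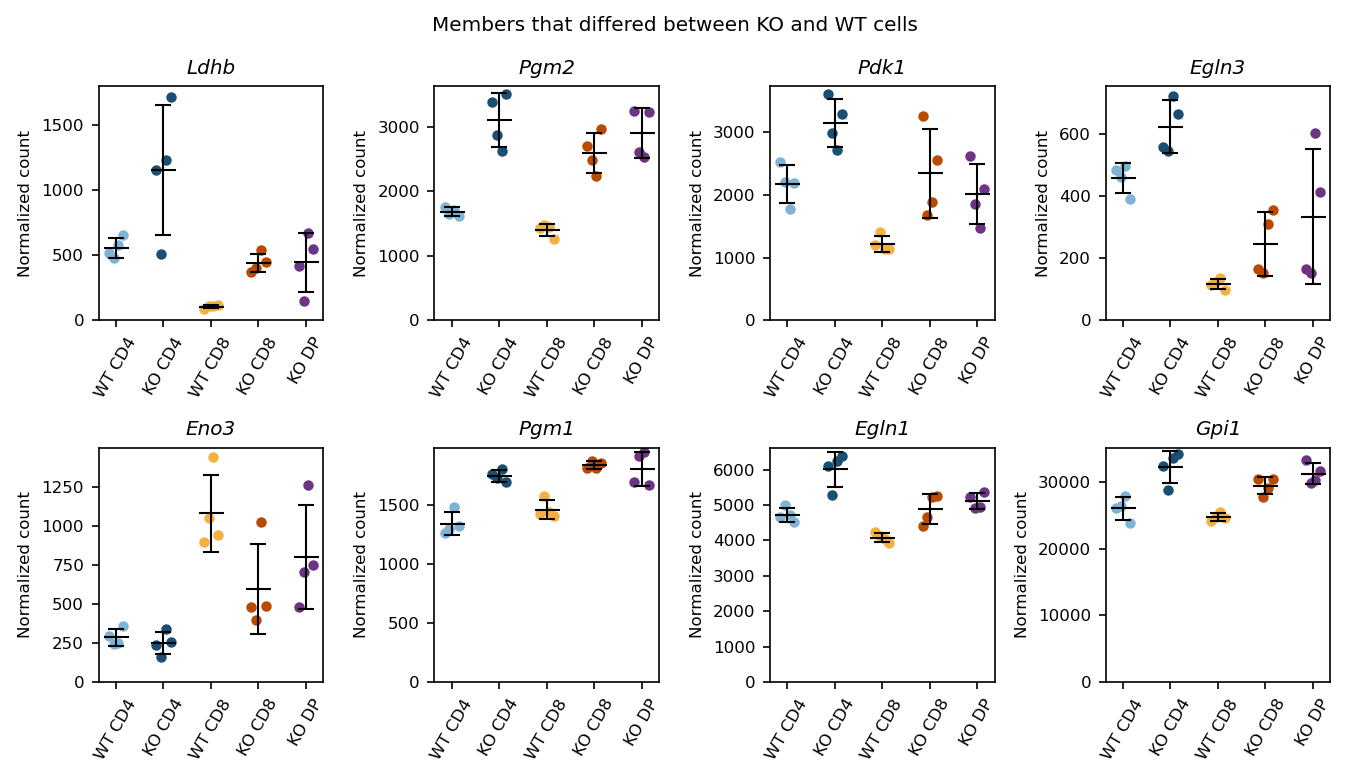
Normalized counts of the 8 members that passed the test in CD4+ or CD8+ cells, 1 point a library, with the mean and SD of 4 libraries in black, in the order WT CD4, KO CD4, WT CD8, KO CD8 and KO DP. The axes start at 0, and the *Ldhb* panel shows KO CD8+ values of 375 to 536 above WT CD8+ values of 89.0 to 117.

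The other members did not pass the test in either subset. In CD4+ cells they ranged from -0.46 (*Bnip3*) to 0.23 (*Slc2a3*), and in CD8+ cells from -1.82 (*Eno2*, at 0 in 2 of 4 KO libraries) to 0.27 (*Slc16a1*), with a median SE over the 31 members of 0.14 and 0.16. Enzymes of the main route were among them: *Hk2*, the hexokinase that activated cells add, differed by -0.07 and -0.27, *Pkm* (pyruvate kinase) by 0.20 and 0.12, *Gapdh* by 0.22 and -0.01 (*Pkm* changed sign in both subsets and *Gapdh* in CD4+ cells under quantile normalization, and *Gapdh* in CD8+ cells with edgeR and DESeq2), *Tpi1* by -0.06 and -0.21, *Pgam1* by -0.18 and -0.16 and *Aldoa* by -0.26 and -0.33. The phosphofructokinases *Pfkl* (-0.32 and -0.48), *Pfkm* (-0.35 and -0.44) and *Pfkp* (-0.00 and -0.05) did not pass, nor did the lactate exporter *Slc16a3* (-0.40 and -0.78), *Slc2a1* (0.09 and 0.11), a glucose transporter that T cells are known to raise on activation, or *Slc2a3* (0.23 and 0.12).

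With *Dnmt3a* intact, 15 of the 31 members differed between WT CD4+ and WT CD8+ cells (48.4%, against 44.5% of 12559 genes), 12 of them higher in CD4+ cells (22.3% of all genes) and 3 higher in CD8+ cells (22.2%). Groups did not overlap for 14 members, against 41.8% of all genes. *Ldhb* was 5.17 times as high in CD4+ cells (log2 difference 2.37, SE 0.14, adjusted p = 2.91e-08), *Egln3* 3.89 times (1.96, SE 0.15, adjusted p = 1.97e-07) and *Hif1a* 1.85 times (0.88, SE 0.05, adjusted p = 3.56e-08). *Pdk1* (0.83), *Aldoc* (0.84), *Pfkfb4* (0.73), *Pfkm* (0.40), *Pfkl* (0.30), *Pgm2* (0.27), *P4ha1* (0.25), *Egln1* (0.21) and *Hk1* (0.20) were also higher in CD4+ cells. *Eno3* (-1.90, adjusted p = 5.51e-07), *Pfkp* (-0.45) and *Gapdh* (-0.22) were higher in CD8+ cells. In a joint fit of the 20 libraries, 6 of the 15 passed, and with the animal as a block 19 members did (14 higher and 5 lower in CD4+ cells, against 48.8% of all genes).

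Between KO CD4+ and KO CD8+ cells, 1 member passed (3.23%, against 4.22% of 12189 genes, with 2.73% higher in CD4+ cells), and 7 did not overlap, against 10.1% of all genes. It was *Egln3*, at 558, 546, 722 and 663 in KO CD4+ and 164, 152, 308 and 356 in KO CD8+ libraries, a log2 difference of 1.43 (SE 0.29, adjusted p = 0.0264). With the animal number as a block, which takes equal numbers of the 2 subsets as the same animal, 11 members passed (9 higher and 2 lower in CD4+ cells, against 18.9% of all genes). *Hif1a* was then 1.00 higher in CD4+ cells (SE 0.09), *Ldhb* 1.27 (SE 0.23) and *Eno3* 1.20 lower (-1.20, SE 0.16), at adjusted p = 9.58e-05, 0.00432 and 0.000883 (limma). Without the block, *Egln3* no longer passed when the KO CD4+ library of animal 1, 3 or 4 or the KO CD8+ library of animal 1 or 2 was left out (adjusted p up to 0.0904).

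DP cells carry both coreceptors, and the study asked which subset they resemble. Against KO CD8+ cells, 0 of 31 members passed the test with limma, edgeR or DESeq2 or with the animal as a block, and in the fit without the block 0 had an unadjusted p under 0.05 (background 0.00823% of 12153 genes, and 1.95% at an unadjusted p). Groups did not overlap for 0 members, against 2.7% of all genes. Every log2 difference was between -0.44 (*Eno2*) and 0.44 (*Eno3*), with a median SE of 0.24. With the animal as a block the median SE was 0.11, and 7 members had an unadjusted p under 0.05, against 11.9% of all genes. These were *Tpi1* (0.34, SE 0.08), *Pgam1* (0.29), *Slc16a3* (0.33), *Aldoa* (0.26), *Ldha* (0.33), *Eno3* (0.44) and *Gapdh* (0.24), all with higher values in DP cells, and each had an adjusted p of 0.405 (limma). In every 1 of the 4 animals, 13 of the 31 members had a higher value in DP than in CD8+ cells, against 16.2% of all genes. Against KO CD4+ cells, 1 member passed (3.23%, against 1.95% of 12175 genes, 0.682% higher in DP cells), and 3 did not overlap, against 11.2% of all genes. It was *Eno3*, at 481, 700, 1262 and 750 in DP and 239, 162, 340 and 256 in KO CD4+ libraries, with no overlap. Its log2 difference was 1.64 (SE 0.32, adjusted p = 0.0344), and 1.39 without the DP library of animal 3 (adjusted p = 0.0445). It was lost without any 1 of the KO CD4+ libraries or the DP library of animal 2 or 4 (adjusted p up to 0.10). With the animal as a block, 4 members passed (7.06% of all genes), *Eno3* higher and *Hif1a* (-0.93, SE 0.12), *Ldhb* (-1.44, SE 0.18) and *Pdk1* (-0.67, SE 0.11) lower in DP cells.

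**Figure D4:**
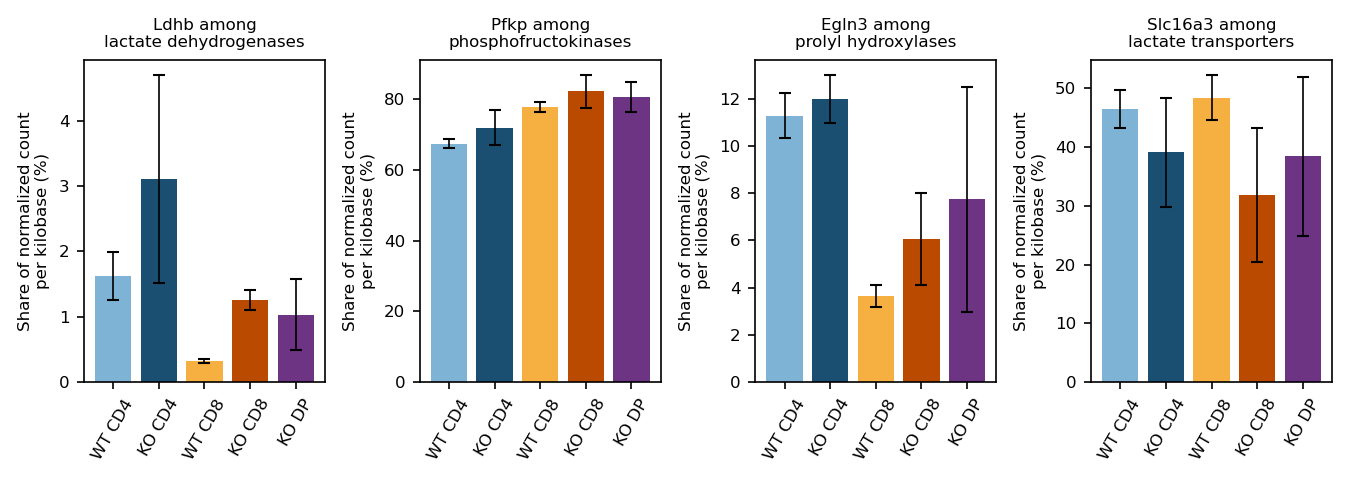
The share of the normalized count per kilobase held by *Ldhb*, *Pfkp*, *Egln3* and *Slc16a3* within their isozyme families, as the mean over 4 libraries with the SD as bars. The lactate dehydrogenase bar is lowest in WT CD8+ cells at 0.320% and highest in KO CD4+ cells at 3.10%, where the SD is 1.59.

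The spread between animals was wider in KO than in WT groups, for the members and for all genes. For the 23 members with a mean of at least 1000, the median SD of log2 values was 0.231 in KO CD4+, 0.305 in KO CD8+ and 0.319 in KO DP cells, against 0.169, 0.178 and 0.291 for all 6569 genes of that level. In WT CD4+ and CD8+ cells it was 0.107 and 0.0765, against 0.0892 and 0.0668 for all. In KO CD8+ cells, 11 of the 23 were lowest in animal 1 and highest in animal 3, against 15.9% of all genes of that level. In DP cells it was 8 of 23 (13.6% of all genes) and in CD4+ cells 5 of 23 (9.07%). *Slc16a3*, *Pfkl*, *Tpi1*, *Aldoa* and *Pgam1* followed this order in all 3 subsets. Other members did not: *Slc2a1* was highest in animal 1 and lowest in animal 4 in CD4+, CD8+ and DP cells, by 1.72, 1.56 and 1.69 times. *Pdk1* was also highest in animal 1 in all 3 subsets.

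*Slc16a3*, which exports lactate, was 700, 984, 1828 and 1193 in the KO CD4+ libraries of animals 1 to 4, 381, 698, 1953 and 1120 in KO CD8+ and 557, 817, 2482 and 1282 in DP libraries. Animal 3 was the highest and animal 1 the lowest each time, by 2.61, 5.12 and 4.46 times, while the WT libraries ranged over 1.46 times in CD4+ and 1.41 times in CD8+ cells. *Tpi1* ranged over 2.03, 2.58 and 2.53 times and *Ldha* over 1.36, 1.71 and 2.43 times. The summed cell cycle genes were lowest in animal 1 in each subset (61409 in CD4+, 64062 in CD8+ and 74053 in DP cells) and highest in animal 2, and the summed acinar genes of the pancreas were highest in animal 3 (7126, 7516 and 8160, against 538 to 3326 in the other KO libraries). *Txnip*, which holds back glucose uptake, was highest in animal 1 (95433 in CD4+ cells). Their part in the order of the animals was not tested, and the animals were not compared by a test.

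**Figure D5:**
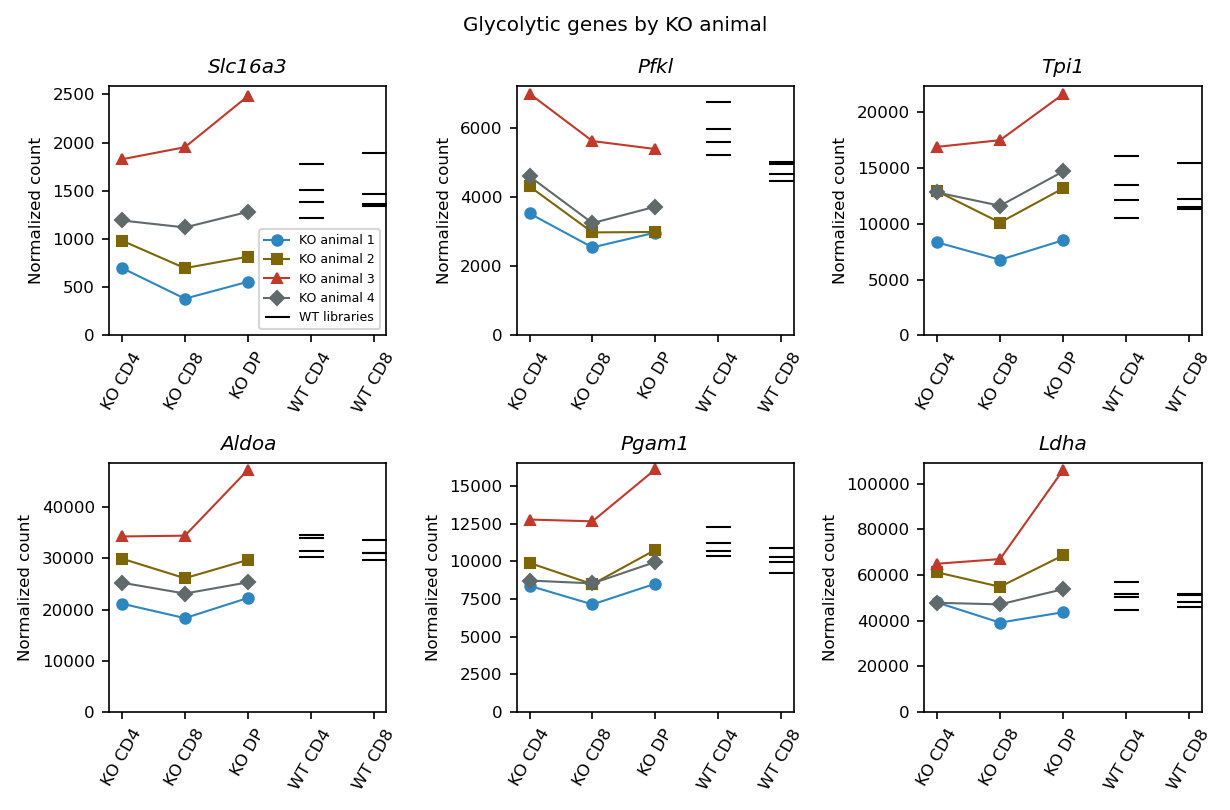
Normalized counts of 6 glycolytic genes in the 4 KO animals, joined across their CD4+, CD8+ and DP libraries, with the WT libraries as black marks. Red triangles (animal 3) are above and blue circles (animal 1) below the other animals in the first 5 panels, with *Slc16a3* from 381 in animal 1 to 1953 in animal 3 in KO CD8+ cells.

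Beyond the 33 genes, lists of neighbouring pathways were counted in the same fits, where 8.59% of all genes were higher and 9.77% lower in KO CD4+ cells, and 12.6% higher and 12.5% lower in KO CD8+ cells. Of 23 other glycolysis and pyruvate genes tested, 2 were higher and 4 lower in KO CD4+ cells, and of 22 in CD8+ cells, 4 were higher and 1 lower, so that 6 and 5 passed, against 18.4% and 25.2% of all genes. *Pgam2*, the muscle-type phosphoglycerate mutase, was higher in both (1.71 and 1.94), and *Hk3* lower in both (-2.28 and -1.17). *Pklr*, the liver-type pyruvate kinase, was lower in CD4+ cells (-4.13, a mean of 10.7 against 126) and *Slc2a6* as well (-1.39). The list's median differences were -0.07 and -0.01. Of 8 myeloid genes, where *Hk3* is also known to be expressed, *Lyz2* and *Adgre1* were lower in KO CD4+ cells and 0 passed in CD8+ cells, with sums of 1350 to 3332 in KO and 3079 to 3621 in WT CD4+ libraries. Their part in the *Hk3* difference was not tested.

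Of 9 pentose phosphate genes, *H6pd* (0.98 and 0.96) and *Rbks* (0.55 and 0.64) were higher in both subsets, and the list's medians were 0.23 and 0.14. *H6pd*, the endoplasmic reticulum form of the first enzyme of the pathway, was 1121 to 1306 in WT CD4+ and 2193 to 2637 in KO CD4+ libraries, and 1319 to 1567 in WT CD8+ and 2507 to 3538 in KO CD8+ libraries. Of 10 glycogen genes, 2 and 4 were higher (8.59% and 12.6% of all genes) and 0 lower, with medians of 0.02 and 0.19. *Gyg*, which primes glycogen, was higher in both (0.42 and 0.39), and *Gys1* (0.57) and *Gbe1* (0.64), which lengthen and branch it, in CD8+ cells. *Pygm*, the muscle glycogen phosphorylase, was 79.1 to 104 in WT CD4+ and 158 to 1100 in KO CD4+ libraries (log2 difference 2.22), and 138 to 165 in WT CD8+ and 400 to 3351 in KO CD8+ libraries (2.49).

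Of 16 genes of the tricarboxylic acid cycle, 5 were higher in KO CD4+ and 6 in KO CD8+ cells (8.59% and 12.6% of all genes), and 0 were lower (9.77% and 12.5%). *Idh2* (0.74 and 1.31), the mitochondrial isocitrate dehydrogenase that makes NADPH, had the largest difference of them in both subsets, at 1021 to 1265 in WT CD4+, 1699 to 2114 in KO CD4+, 479 to 507 in WT CD8+ and 1042 to 1601 in KO CD8+ libraries. *Sdhc* (0.29 and 0.27), *Sucla2* (0.28 and 0.38) and *Suclg1* (0.27 and 0.37) were higher in both. The list's median log2 differences were 0.17 and 0.09.

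Of 16 other genes of the HIF pathway, 2 were higher and 1 lower in KO CD4+ cells, and 3 higher and 1 lower in KO CD8+ cells (against 18.4% and 25.2% of all genes in either direction). *Vhl*, which marks HIF alpha for breakdown together with the prolyl hydroxylases, was higher in both subsets (0.41 and 0.36). *Arnt2*, a partner of HIF alpha, was lower in both (-1.62 and -2.00). *Egln2* was higher in CD4+ cells (0.31), and *Crebbp* (0.44) in CD8+ cells, and the median was 0.05 in both. Of the other HIF targets, 2 of 22 were higher and 5 lower in CD4+ cells and 3 of 20 higher and 3 lower in CD8+ cells (against 18.4% and 25.2% of all genes in either direction). *Ndrg1* (1.09) was higher and *Stc2* (-1.39) lower in CD4+ cells, *Loxl2* higher in CD8+ cells (3.41, at 17.9 to 58.7 in KO and 0 to 20.4 in WT libraries) and *Plod2* lower in both (-1.48 and -1.71), with medians of -0.07 in both. Of 10 regulators of glucose use, *Txnip* was higher in both (1.65 and 1.62), *Akt1* in CD4+ cells (0.43) and *Rptor* in CD8+ cells (0.59), and *Myc* was lower in CD8+ cells (-0.65), with medians of 0.02 and 0.01.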

How the data were processed

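RNA of sorted splenic T cells was measured in 20 libraries, 4 in each of 5 groups taken from the labels. The authors aligned reads of strand-specific, poly(A)-selected libraries to mm10 with STAR (2.7.2b in the submitters' processing notes), counted pairs on exons of UCSC genes with strand, and divided the counts by DESeq2 size factors. What the authors deposited is this signal (normalized counts) for 17101 genes, with no raw counts. Each library's factor was recovered from the table, and multiplying by it gave whole reads (within 0.001) for 100% of values. Only the edgeR and DESeq2 alternatives used these reads.

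In R 4.3.3, limma 3.58.1 was fitted to the log2 of the normalized count plus 1 (lmFit, then eBayes with trend), keeping genes whose mean over the libraries compared was 10 or more. For low genes, the added 1 shrinks fold changes on this scale, while libraries at 0 can push them beyond the ratio of group means. *Eno2* in CD8+ cells had a log2 difference of -1.82, at means of 14.3 in KO and 19.1 in WT libraries. Tests were 2-sided, with Benjamini-Hochberg adjustment over all genes tested and a threshold of 0.05. Alternatives were a pseudocount of 10, no filter, a minimum mean of 50, quantile normalization, a common 75th percentile, edgeR 4.0.16, DESeq2 1.42.0, fitting the 20 libraries jointly, blocking on the animal number, and leaving out 1 library at a time.

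The members, the lists of other genes and the tests were chosen with earlier results of these data known. Members called in KO against WT cells are given in every library, other genes by ranges, and at most 4 genes with the largest differences are named from each list. Within KO, the deviations of equal animal numbers correlated at 0.271 to 0.538 across genes, and within WT at 0.120 to 0.196, so numbers were taken as animals there. The calculations were tested on simulated data. No 2 libraries of a group were duplicates (lowest chi-square per degree of freedom 10.6). Nothing says that animals of a genotype came from separate transplants, so p values measure the spread between these samples. Positions and windows are from RefSeq GRCm38.p6, the build of mm10, and levels per kilobase use the exons of its curated transcripts.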

Additional observations from a re-analysis of the deposited data

Results flagged for a closer look

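Among 160 groups of 4 libraries (32 genes in 5 groups), 8 had 1 library set apart from the other 3 by more than Dixon's 95% critical value, where chance gives about 1 in 20. *Hk1* was 15874 in the DP library of KO animal 1, above 13884 in the next. *Pfkm* was 852 in WT CD4+ animal 5, above 791 in the next. *Eno2* was 8.72 in WT CD8+ animal 2, below 22.1. *Eno3* was 1024 in KO CD8+ animal 3, above 484. *Pfkfb4* was 94.5 in WT CD4+ animal 3, below 129. *Pgm2* was 1265 in WT CD8+ animal 6, below 1439. *Vegfa* was 3.82 in KO CD4+ animal 3 and 12.3 in KO CD8+ animal 4, and listed at 0 in the other 3 libraries of each group.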

How the results depend on the processing

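The members called in KO against WT CD4+ cells numbered 5, and 8 with DESeq2 on whole reads and 0 with the replicate block. In CD8+ cells they numbered 8, and 0 with the block. The block on KO and WT used only numbers 2 and 3, shared by label alone (r between equal numbers 0.0696 to 0.0846 in CD4+ and -0.00240 to 0.0990 in CD8+ cells), so 4 libraries remained. WT CD4+ against CD8+ fell from 15 to 6 in the joint fit and was 19 with the pairing by animal. KO CD4+ against CD8+ went from 1 to 2 with quantile normalization or edgeR, 6 with DESeq2 or the joint fit, and 11 with the pairing by animal. DP against CD4+ went from 1 to 4 with DESeq2 or the pairing, and 6 in the joint fit. DP against CD8+ cells and the interaction stayed at 0 in all alternatives. No called member reversed. Among members not called, 4 in KO against WT CD4+ and 5 in CD8+ cells changed sign under quantile normalization (*Ldha*, *Pkm* and *Pfkfb4* in both), and 5 in each with the replicate block, *Tpi1* in both. With a library left out, the count was 1 to 7 in CD4+ cells (1 without WT 6, 3 without WT 3 or WT 5) and 4 to 13 in CD8+ cells (13 without KO 3, 5 without KO 4 or WT 5, 4 without WT 2, WT 3 or WT 6), 14 to 16 for WT subsets, 0 to 2 for KO CD4+ against CD8+ and for DP against CD4+ cells. *Pgm2* in both subsets and *Ldhb*, *Pdk1* and *Pgm1* in CD8+ cells passed in all 8 alternatives apart from the block and without any 1 library. The adjusted p of *Pdk1* in CD4+ cells was 0.0737 in the joint fit and 0.0541 without WT 6. That of *Egln1* in CD8+ cells was 0.0665 under quantile normalization, and that of *Egln3* in CD8+ cells up to 0.0708 without filter or in the joint fit. *Eno3* in CD8+ cells had 0.0610 with edgeR. The causes were not tested. The groups did not overlap for 6 to 8 members in CD4+ and 7 in CD8+ cells under the other scalings.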
